A study of Mus musculus with 43 samples.

Results

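A set of 9 genes of the complement system was followed through the brain transcriptomes of 2 mouse models of Alzheimer's disease given an inducer of NRF2, a transcription factor that drives genes for antioxidant defence and detoxification. They were C1qa, C1qb and C1qc, C4b, C3, Serping1, C3ar1, C5ar1 and Itgam, chosen by symbol, and each was found once among the 55804 gene rows of both tables of transcript abundance. Bulk RNA of brain was sequenced in 43 libraries. The inducer was CDDO-2P-Im, a synthetic oleanane triterpenoid, dosed orally with 30 µmol per kg of body weight on 3 occasions each week. AppNLGF mice (AppNL-G-F/NL-G-F) have a humanised amyloid sequence with familial mutations knocked into both copies of App, so the mutant protein is made under mouse App control. At 6 months of age this cohort held 13 AppNLGF libraries given CDDO-2P-Im for 4 weeks and 11 AppNLGF libraries given vehicle on the same schedule. It also held 4 wild type libraries given vehicle. APP/TAU mice (APPV717I::TAUP301L) carry mutant human APP and TAU transgenes, driven by promoters that the labels do not name. At 11 months this cohort held 5 APP/TAU libraries given CDDO-2P-Im for 2 weeks and 5 APP/TAU libraries given vehicle on the same schedule. It also held 5 wild type libraries given vehicle. The vehicle was a mixture of DMSO, Cremophor EL and PBS, and the dosing schedule of the wild type mice is not stated. The labels give no brain region, sex or background strain, and replicate numbers are not tied to animals in them, so the p-values below rest on spread among libraries that may be technical.

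Complement is a cascade of proteins that tags cells, debris and synapses and calls phagocytes to them. In the classical pathway the C1q protein, built from chains A, B and C, binds its target and starts cleavage of C4 and then C3, whose fragments are deposited on the target or act as attractants. In the brain C1q is made mainly by microglia and C4 largely by astrocytes and oligodendrocytes, microglia carry the receptors for C3 and C5 fragments, and complement at amyloid plaques is linked to the loss of synapses in mouse models.

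The genes of the C1q chains lie next to each other on chromosome 4 of GRCm38, all on the minus strand, within 18.7 kb (C1qb 136880129 to 136886187, C1qc 136889804 to 136893065, C1qa 136895917 to 136898803). Because these neighbours moved together in the AppNLGF cohort, the promoters of C1qb (chr4:136886151-136886450, minus strand) and C1qc (chr4:136892865-136893164, minus strand) are shown beside that of Itgam (chr7:128062390-128062689, plus strand), a microglial gene on another chromosome. They come from RefSeq on GRCm38.p6, run 5′ to 3′ along the gene's strand and were matched for 6 of the 9 genes. Each holds 300 bases, 250 before and 50 after the start that RefSeq gives. For C1qb and C1qc that start differs from the one in the gene positions above, which are from GENCODE. The C1qc window therefore lies largely inside the gene. Capitals mark matches on either strand to GAGGAA, the core bound by the myeloid factor PU.1, and to TGACNNNGC, the core of the antioxidant response element bound by NRF2.
C1qb: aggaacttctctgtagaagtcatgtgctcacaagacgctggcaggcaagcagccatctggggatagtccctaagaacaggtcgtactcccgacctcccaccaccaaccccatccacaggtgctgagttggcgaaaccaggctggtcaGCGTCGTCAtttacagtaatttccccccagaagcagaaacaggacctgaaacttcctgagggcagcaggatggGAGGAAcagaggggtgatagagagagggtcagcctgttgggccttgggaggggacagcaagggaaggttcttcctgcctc
C1qc: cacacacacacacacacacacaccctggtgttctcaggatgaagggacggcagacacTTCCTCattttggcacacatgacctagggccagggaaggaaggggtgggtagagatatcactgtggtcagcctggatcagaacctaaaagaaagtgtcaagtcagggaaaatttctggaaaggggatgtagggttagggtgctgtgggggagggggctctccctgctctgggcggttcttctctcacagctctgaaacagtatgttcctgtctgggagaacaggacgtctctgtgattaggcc
Itgam: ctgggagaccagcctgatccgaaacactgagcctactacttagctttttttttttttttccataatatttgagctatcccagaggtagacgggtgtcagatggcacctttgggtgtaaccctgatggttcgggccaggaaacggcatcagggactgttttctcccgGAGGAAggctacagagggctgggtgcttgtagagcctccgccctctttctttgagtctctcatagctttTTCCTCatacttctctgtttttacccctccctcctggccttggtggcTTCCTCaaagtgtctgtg

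GAGGAA was found once in C1qb, once in C1qc and 3 times in Itgam, and was not found in C3, C3ar1 or C5ar1. It is a short motif that 28.3% of all 32851 promoter windows hold. TGACNNNGC was found once, in C1qb, on the opposite strand at position -103 from the RefSeq start, and 12.4% of all windows hold it. The motifs did not overlap each other, and a match describes letters, not binding.

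Abundance is given in TPM as the authors deposited it, a unit that divides by transcript length, so genes can be set against each other, and that fixes the total of each library, so the depth is unknown. A single RNA without a symbol, ENSMUSG00000118866, took 15.5 to 40.0% of the total in a library and moves every other value the other way. All comparisons were therefore repeated after median-ratio scaling, which divides a library by its median ratio to the average library over the tested genes. Folds are differences of log2(TPM + 1), which understates changes of genes with low TPM, and genes with a mean of at least 1 TPM in a table were tested with limma, with the 3 groups of a cohort in 1 fit and the Benjamini-Hochberg adjustment taken over every tested gene. Called means an adjusted p below 0.05. The test covered 7 of the 9 genes in the AppNLGF cohort (all but C3 and C5ar1) and 6 in the APP/TAU cohort (all but C3, C3ar1 and C5ar1). As a check of the tissue, 10 neuronal markers summed to between 2442 and 3656 TPM in the 43 libraries. The C1q chains were the most abundant of the 9 genes, at 18.6 to 74.5 TPM, followed by C4b at 6.31 to 28.1 TPM. Serping1 lay at 0.859 to 10.1 TPM, Itgam at 3.46 to 8.51 TPM, and C3ar1, C5ar1 and C3 at 0.0193 to 2.28 TPM.

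**Figure D1:**
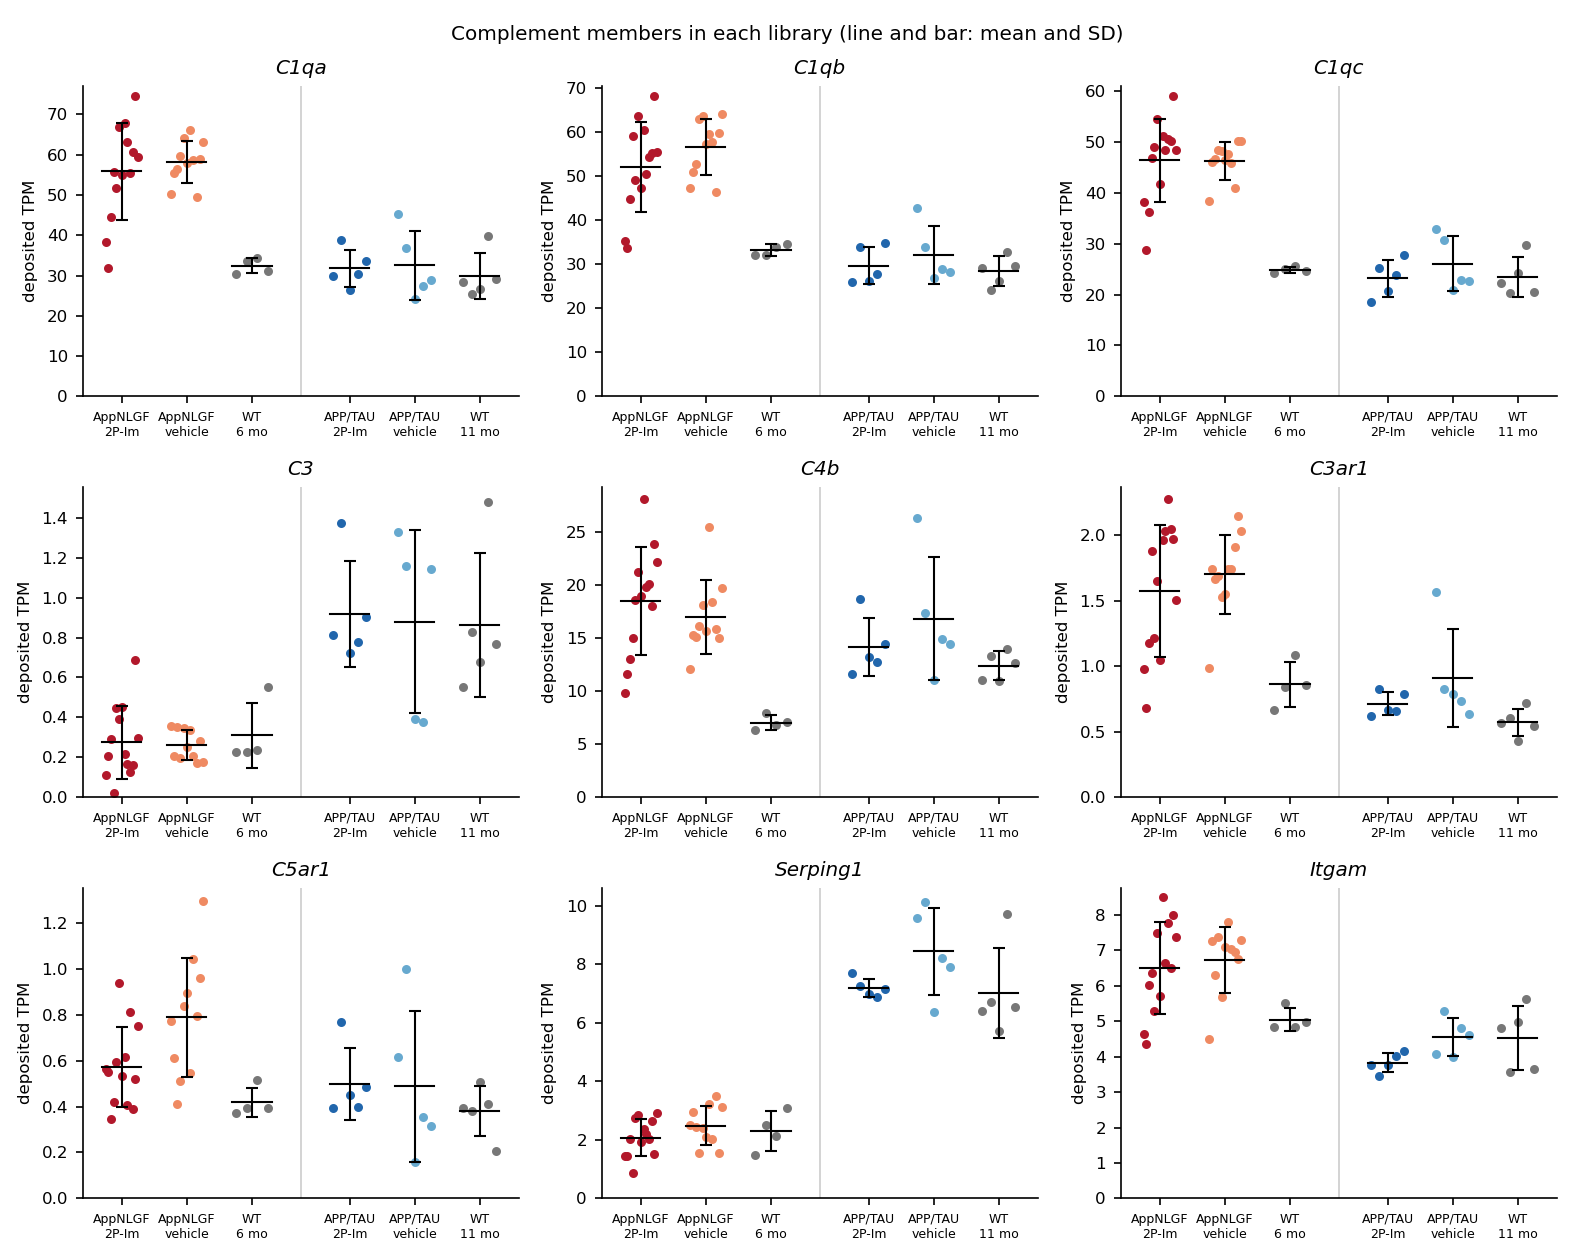
TPM as deposited (y axis, linear, from 0) of the 9 complement genes in each library of both cohorts; points are libraries, the line and bar are the group mean and SD, and within a cohort the CDDO-2P-Im group stands left of the vehicle group and the wild type group. C1qa, C1qb, C1qc and C4b of AppNLGF vehicle all lie above wild type, while the APP/TAU groups overlap in every panel.

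In AppNLGF vehicle brains the genes of all 3 C1q chains were higher than in wild type. C1qa, which encodes the A chain of C1q, ran from 49.6 through a median of 58.7 to 66.2 TPM in the 11 AppNLGF vehicle libraries, against 30.5, 33.5, 34.4 and 31.2 TPM in the 4 wild type libraries. C1qb, the B chain, ran from 46.4 through 57.9 to 64.0 TPM in AppNLGF vehicle, against 32.0, 32.2, 34.0 and 34.6 TPM in wild type. C1qc, the C chain, ran from 38.3 through 46.8 to 50.2 TPM in AppNLGF vehicle, against 24.2, 25.1, 25.6 and 24.7 TPM in wild type. For each chain every AppNLGF vehicle library lay above every wild type library. The ratio of group means was 1.80 for C1qa, 1.71 for C1qb and 1.86 for C1qc. The log2 folds were 0.82 ± 0.14 for C1qa (SE; limma adjusted p = 0.00189), 0.74 ± 0.13 for C1qb (adjusted p = 0.00254) and 0.87 ± 0.12 for C1qc (adjusted p = 7.71e-05). The genes that flank the cluster, Ephb2 and Epha8, which encode ephrin receptors, had log2 folds of 0.10 and -0.29 (adjusted p = 1 for both).

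C4b, which encodes the mouse C4 that C1 cleaves (chromosome 17, 34728380 to 34743882, minus strand), had the largest fold among the 7 genes tested. It ran from 12.1 through 15.9 to 25.5 TPM in AppNLGF vehicle, against 6.31, 7.97, 6.79 and 7.08 TPM in wild type, again with no overlap. The means were 17.0 ± 3.47 TPM in AppNLGF vehicle (SD, n = 11) and 7.04 ± 0.701 TPM in wild type (n = 4), a log2 fold of 1.14 ± 0.18 (limma adjusted p = 0.00105). C4b has a near-identical neighbour, C4a, so reads may have been split between the pair, and the C4b values are uncertain to that extent. C3, the component on which all complement pathways meet (chromosome 17, 57203970 to 57228136, minus strand), did not follow C4b. It ran from 0.172 through 0.254 to 0.355 TPM in AppNLGF vehicle, against 0.228, 0.226, 0.236 and 0.554 TPM in wild type, and the groups overlapped. With no minimum on abundance its log2 fold was -0.05 (limma adjusted p = 1). Without wild type library 4, which held the 0.554, all wild type values fell inside the AppNLGF vehicle range.

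Among the receptors, C3ar1 and Itgam passed the test only after median-ratio scaling. C3ar1, the receptor for the C3a fragment (chromosome 6, 122847138 to 122856161, minus strand), ran from 0.989 through 1.74 to 2.14 TPM in AppNLGF vehicle, against 0.663, 0.845, 1.08 and 0.858 TPM in wild type. All but 1 of the 11 AppNLGF vehicle libraries lay above every wild type library, and the log2 fold was 0.53 ± 0.14 (limma adjusted p = 0.170), or 0.54 ± 0.11 after scaling (adjusted p = 0.00626). After scaling all 11 lay above, as for 0.681% of genes. C3ar1 reached the minimum of 1 TPM through the model groups, since its wild type mean was 0.863 TPM. With no minimum its limma adjusted p after scaling was 0.0109. Itgam, which encodes the alpha chain of complement receptor CR3, also called CD11b (chromosome 7, 128062640 to 128118491, plus strand), ran from 4.49 through 7.05 to 7.82 TPM in AppNLGF vehicle, against 4.84, 5.53, 4.85 and 4.97 TPM in wild type. Here 10 of 11 libraries lay above every wild type library, and the log2 fold was 0.35 ± 0.12 (limma adjusted p = 0.693), or 0.37 ± 0.08 after scaling (adjusted p = 0.0220).

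C5ar1, the receptor for the C5a fragment (chromosome 7, 16246743 to 16259540, minus strand), was at 0.789 ± 0.259 TPM in AppNLGF vehicle (SD, n = 11), with a range of 0.411 to 1.30, against 0.373, 0.394, 0.514 and 0.393 TPM in wild type. Of the 11 AppNLGF vehicle libraries 9 lay above every wild type library, yet the fold with no minimum on abundance, 0.32 ± 0.10 on the log2 scale, did not pass (limma adjusted p = 0.509). Serping1, which encodes the C1 inhibitor (chromosome 2, 84765387 to 84775444, minus strand), ran from 1.55 through 2.43 to 3.50 TPM in AppNLGF vehicle, against 1.49, 2.50, 2.12 and 3.10 TPM in wild type. The groups overlapped throughout, and the log2 fold of 0.08 ± 0.17 has a 95% interval of -0.27 to 0.43 (limma adjusted p = 1).

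Together, 4 of the 7 genes tested were called higher in AppNLGF vehicle than in wild type and none lower, where 0.221% of the 16776 genes tested were called higher. For those 4 genes no AppNLGF vehicle library reached down into the wild type range, which held for 0.399% of genes tested. The median log2 fold was 0.74 over the 7 genes and -0.03 over all genes tested. After median-ratio scaling 6 of the 7 were called, beside 0.555% of all genes. They include C3ar1, which reached the minimum abundance through the model groups. C1qa lost its call when the replicate number was added to the fit (log2 fold 0.63, limma adjusted p = 0.0742). Same-numbered libraries correlated between -0.081 and 0.118, but the share of the most abundant RNA tended to be higher at low numbers in the AppNLGF groups. When the fit separated libraries numbered up to 5 from the later numbers, an alternative added after seeing the data, C1qa, C1qb, C1qc and C4b were all called, at log2 folds of 0.66, 0.62, 0.75 and 0.90 (limma adjusted p = 0.00835, 0.0143, 0.000494 and 0.00209).

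**Figure D2:**
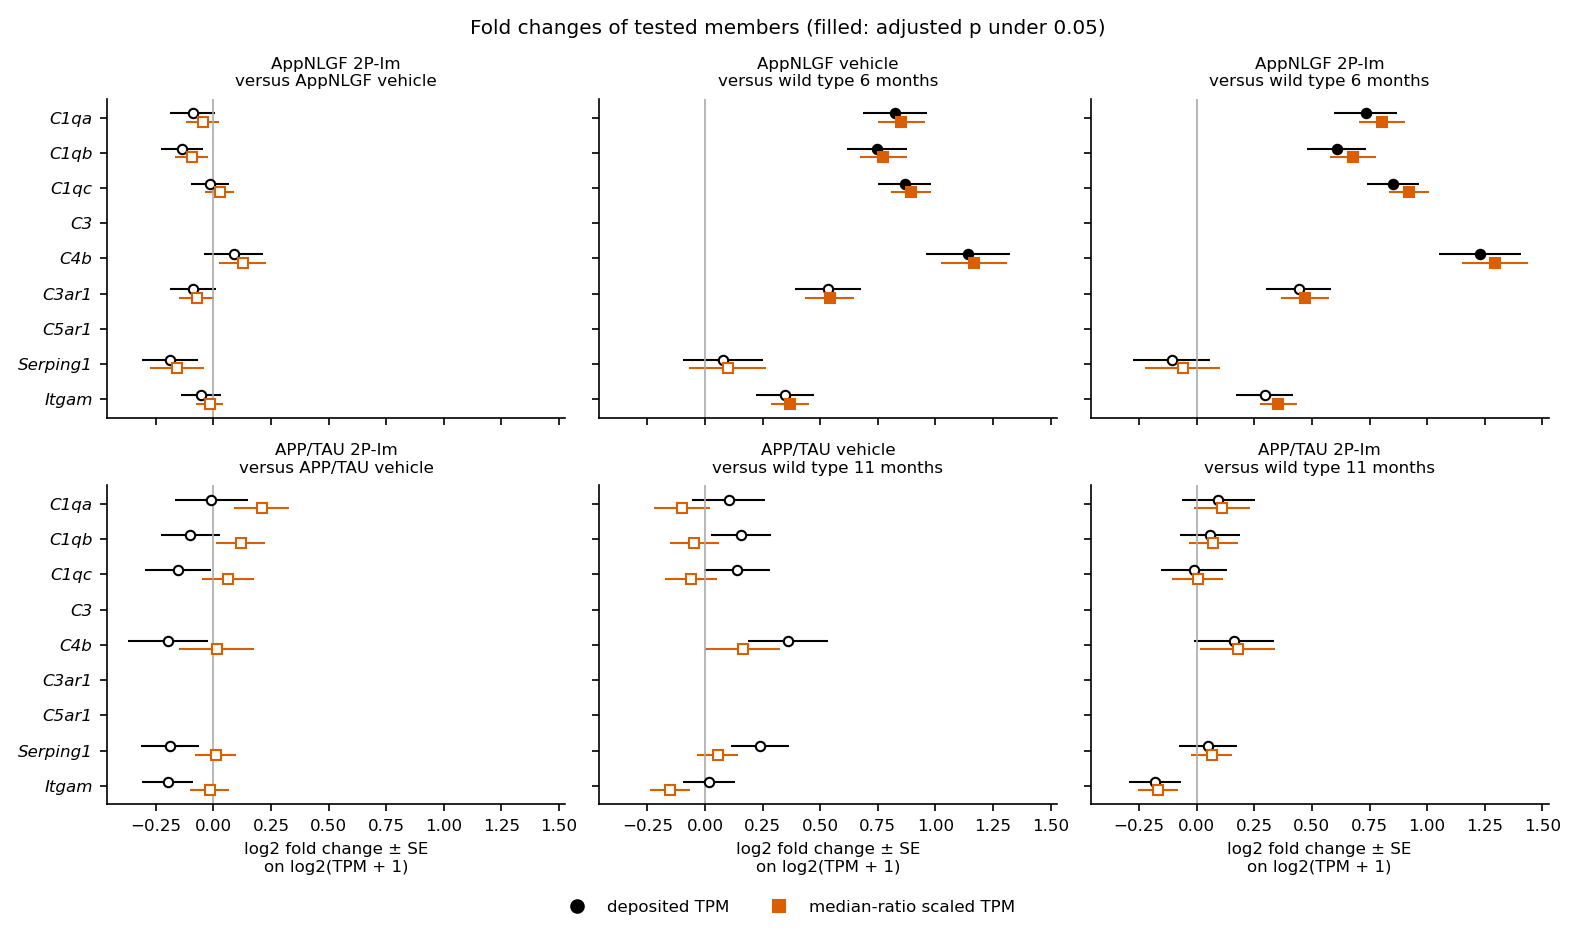
Log2 folds (x axis) of the complement genes tested in the 3 comparisons of each cohort, from TPM as deposited (black) and after median-ratio scaling (orange); bars are SE and filled points are called. In both AppNLGF comparisons with wild type C1qa, C1qb, C1qc and C4b are filled and lie between 0.61 and 1.29, and no point is filled in the comparisons of CDDO-2P-Im with vehicle or in the APP/TAU cohort.

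Glial markers moved beside the complement genes. Of 12 markers of microglia at plaques 7 were called higher in AppNLGF vehicle than in wild type, with a median log2 fold of 0.80. Among all genes tested 0.221% were called higher, or 0.555% after scaling. All 12 markers reached the minimum abundance here and 9 did in the APP/TAU cohort. Some may thus have reached it through the model groups, and no fit without the minimum was made for them. The summed abundance of the 12 was 295.5 to 425.2 TPM in AppNLGF vehicle against 194.0 to 212.1 TPM in wild type. Ctsd, one of the 12, averaged 216 TPM over the AppNLGF model libraries after scaling, a large part of that sum. Cst7, a cathepsin inhibitor, had a log2 fold of 3.72, and Ccl6, a chemokine, one of 2.36. Of 12 markers of resting microglia only Fcrls was called (log2 fold 0.79, limma adjusted p = 0.0107), or 4 of them after scaling. Their summed abundance was 150.9 to 237.9 TPM in AppNLGF vehicle and 139.9 to 153.1 TPM in wild type, and their median log2 fold was 0.37. Of 7 markers of reactive astrocytes tested 2 were called, Gfap with a log2 fold of 1.58 and Serpina3n with one of 0.88. The list summed to 127.6 to 212.8 TPM in AppNLGF vehicle against 58.1 to 76.2 TPM in wild type. Gfap alone averaged 133 TPM over the AppNLGF model libraries after scaling, a large part of that sum. Fewer or more cells of a type and less or more RNA per cell cannot be told apart in bulk tissue, and the part of the markers in the complement folds was not tested.

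The mean log2 abundance of the 3 C1q chains lay above that of the 12 resting microglia markers by 2.16 ± 0.10 in AppNLGF CDDO-2P-Im (SD, n = 13), 2.10 ± 0.11 in AppNLGF vehicle (n = 11) and 1.66 ± 0.06 in wild type libraries (n = 4). All AppNLGF libraries, which ran from 1.92 to 2.38, lay above the wild type libraries, which ran from 1.60 to 1.72. Like the folds, these log2 values understate changes of genes with low TPM, and the resting markers had the lower mean. Equal changes of both sets could therefore also widen the difference, and the size of this effect was not tested. How often other sets of genes separate in this way was not counted. Markers of perivascular macrophages, which can also express C1q, summed to 2.17 to 5.28 TPM in AppNLGF vehicle and 2.95 to 4.74 TPM in wild type, and those of neutrophils and monocytes to at most 2.95 TPM in AppNLGF vehicle and 1.96 TPM in wild type. Markers of choroid plexus, where Serping1 is also expressed, varied widely, from 26.0 to 639 TPM in AppNLGF CDDO-2P-Im and 26.0 to 713 TPM in AppNLGF vehicle against 512 to 758 TPM in wild type.

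CDDO-2P-Im was followed by no called change of any complement gene in AppNLGF brains. The treated libraries spread more widely in the C1q chains as deposited, with an SD of C1qa of 12.0 TPM in AppNLGF CDDO-2P-Im and 5.24 TPM in AppNLGF vehicle, or 8.25 and 6.01 TPM after scaling. For C1qb the scaled SD was 7.10 TPM in AppNLGF CDDO-2P-Im and 7.25 TPM in AppNLGF vehicle. C1qa ran from 32.0 through a median of 55.8 to 74.5 TPM in the 13 AppNLGF CDDO-2P-Im libraries, against 49.6 through 58.7 to 66.2 TPM in the 11 AppNLGF vehicle libraries. Its log2 fold was -0.09, with a 95% interval of -0.29 to 0.11 (limma adjusted p = 0.838). C1qb ran from 33.8 through 54.3 to 68.3 TPM in AppNLGF CDDO-2P-Im, against 46.4 through 57.9 to 64.0 TPM in AppNLGF vehicle, a log2 fold of -0.14 with an interval of -0.32 to 0.05. C1qc ran from 28.7 through 48.5 to 59.0 TPM in AppNLGF CDDO-2P-Im, against 38.3 through 46.8 to 50.2 TPM in AppNLGF vehicle, a log2 fold of -0.02 with an interval of -0.18 to 0.15. As deposited, treated libraries lay on both sides of the vehicle range for each chain, while after scaling none lay above it for C1qa or C1qb. For each chain as deposited, the treated libraries under the vehicle range were numbers 1, 2 and 3, and the most abundant RNA took 40.0, 39.3 and 36.0% of their total. Treated library 5, where that RNA took 39.7%, lay inside the vehicle range for each chain, with 51.7 TPM of C1qa. After scaling library 2 was the one treated library below the vehicle range for each chain.

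C4b ran from 9.86 through 19.0 to 28.1 TPM in AppNLGF CDDO-2P-Im, against 12.1 through 15.9 to 25.5 TPM in AppNLGF vehicle. The log2 fold was 0.09, with a 95% interval of -0.17 to 0.35 (limma adjusted p = 0.867). C3 was at 0.275 ± 0.181 TPM in AppNLGF CDDO-2P-Im (SD, n = 13) and 0.262 ± 0.0749 TPM in AppNLGF vehicle (n = 11), and the treated libraries, from 0.0193 to 0.690 TPM, enclosed the vehicle range. Serping1 was at 2.07 ± 0.631 TPM in AppNLGF CDDO-2P-Im and 2.48 ± 0.653 TPM in AppNLGF vehicle, a log2 fold of -0.19 with an interval of -0.43 to 0.06 (limma adjusted p = 0.778). Overlap between treated and vehicle libraries was thus wide for all 3 genes.

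For the receptors too the treated and vehicle ranges overlapped. C3ar1 ran from 0.685 through 1.66 to 2.28 TPM in AppNLGF CDDO-2P-Im, against 0.989 through 1.74 to 2.14 TPM in AppNLGF vehicle, with a log2 fold of -0.09 (limma adjusted p = 0.840). Itgam ran from 4.36 through 6.51 to 8.51 TPM in AppNLGF CDDO-2P-Im, against 4.49 through 7.05 to 7.82 TPM in AppNLGF vehicle, with a log2 fold of -0.05 (limma adjusted p = 0.887). C5ar1 ran from 0.347 through 0.551 to 0.940 TPM in AppNLGF CDDO-2P-Im, against 0.411 through 0.794 to 1.30 TPM in AppNLGF vehicle. Its log2 fold with no minimum on abundance was -0.18 ± 0.07, and it did not pass adjustment over all genes (limma p = 0.0175, adjusted p = 0.846).

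None of the 7 genes tested was called between AppNLGF CDDO-2P-Im and AppNLGF vehicle, as deposited or after scaling (where 0.287% of genes were called), and none had an unadjusted p below 0.05. Of all 16776 genes 9 were called, or 0.0536%, and 1036 had an unadjusted p below 0.05. The median log2 fold was -0.09 over the 7 genes and -0.04 over all genes tested. Plaque and resting microglia markers had median log2 folds of -0.10 and -0.15 in the same comparison, with none called. An interval that holds 0 does not show that treated and vehicle brains were alike.

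Set against wild type, C1qa, C1qb, C1qc and C4b were called higher in AppNLGF CDDO-2P-Im. This comparison shares its wild type libraries with the one above. The log2 folds were 0.73 ± 0.14 for C1qa (limma adjusted p = 0.00855), 0.61 ± 0.13 for C1qb (adjusted p = 0.0253), 0.85 ± 0.11 for C1qc (adjusted p = 0.000101) and 1.23 ± 0.18 for C4b (adjusted p = 0.000318). Every one of the 13 treated libraries lay above every wild type library for C1qc and C4b, as for 0.155% of all genes, and 12 of 13 did for C1qa and C1qb. The 4 called genes stand beside 0.244% of all genes called higher and a median log2 fold over all genes of -0.06. In the same comparison 7 of the 12 plaque microglia markers were called higher, with a median log2 fold of 0.87. C3ar1 and Itgam were called only after median-ratio scaling, with log2 folds of 0.47 and 0.35 (limma adjusted p = 0.0234 and 0.0269), beside 0.651% of genes called higher after scaling. With no minimum on abundance these scaled limma adjusted p were 0.0400 for C3ar1 and 0.0489 for Itgam. The C1qb call was lost with no minimum on abundance (adjusted p = 0.0586). Without wild type library 1 the C1qa and C1qb calls were both lost (adjusted p = 0.0863 and 0.179), as they were without wild type library 4 (adjusted p = 0.0722 and 0.112), and C1qb alone lost its call without wild type library 2 or 3 (adjusted p = 0.134 and 0.105).

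The balance of the 3 chains could be followed within each library, since scaling cancels there. C1qa made up 36.0 ± 1.65% of summed C1q TPM in AppNLGF CDDO-2P-Im (SD, n = 13), 36.2 ± 0.913% in AppNLGF vehicle (n = 11) and 35.8 ± 1.16% in wild type (n = 4). C1qb made up 33.8 ± 1.58%, 35.1 ± 1.10% and 36.7 ± 1.19% in the same groups. C1qc made up 30.2 ± 1.65%, 28.8 ± 1.02% and 27.5 ± 0.342%. In treated libraries the C1qc share, from 28.5 to 34.1%, lay above that of every wild type library, from 27.2 to 27.9%, while AppNLGF vehicle, from 27.4 to 30.2%, overlapped both. No test was made of these shares, which depend on each other and were examined as a description. How often shares of other genes separate in this way was not counted.

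No complement gene was called in APP/TAU brains. C1qa was at 29.9, 38.7, 26.4, 30.3 and 33.5 TPM in APP/TAU CDDO-2P-Im, against 45.3, 36.7, 24.2, 27.5 and 28.8 TPM in APP/TAU vehicle and 28.5, 25.3, 26.5, 39.8 and 29.2 TPM in wild type. The groups overlapped, and vehicle library 1 and wild type library 4 stood highest. C1qb averaged 29.7 ± 4.29 TPM in APP/TAU CDDO-2P-Im, 32.1 ± 6.56 TPM in APP/TAU vehicle and 28.4 ± 3.32 TPM in wild type (SD, n = 5 each). C1qc averaged 23.2 ± 3.63, 26.1 ± 5.40 and 23.4 ± 3.91 TPM in the same groups.

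C4b was at 11.6, 18.7, 13.2, 12.7 and 14.4 TPM in APP/TAU CDDO-2P-Im, against 26.3, 17.3, 11.0, 14.9 and 14.4 TPM in APP/TAU vehicle and 11.1, 13.3, 11.0, 14.0 and 12.7 TPM in wild type. As deposited 4 of the 5 vehicle libraries lay above every wild type library, and after median-ratio scaling 1 lay above and 1 below all of them. The log2 fold of APP/TAU vehicle over wild type was 0.36 ± 0.17 (limma adjusted p = 0.217), or 0.16 ± 0.16 after scaling. C3 was at 0.812, 1.37, 0.721, 0.776 and 0.904 TPM in APP/TAU CDDO-2P-Im, against 1.33, 1.16, 0.390, 0.379 and 1.14 TPM in APP/TAU vehicle and 0.552, 0.828, 0.678, 1.48 and 0.767 TPM in wild type. The C3 vehicle libraries fell into a higher 3 and a lower 2, and no library of the other groups reached down to the lower 2.

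Serping1 was at 7.70, 7.25, 6.99, 6.88 and 7.14 TPM in APP/TAU CDDO-2P-Im, against 9.56, 10.1, 6.36, 8.22 and 7.91 TPM in APP/TAU vehicle and 6.41, 6.71, 5.71, 9.70 and 6.55 TPM in wild type. The treated libraries lay within 1 TPM of each other, inside the vehicle range. Itgam was at 3.77, 3.46, 3.75, 4.03 and 4.16 TPM in APP/TAU CDDO-2P-Im, against 4.08, 5.29, 3.99, 4.82 and 4.61 TPM in APP/TAU vehicle and 4.82, 3.57, 4.99, 5.62 and 3.65 TPM in wild type. Its log2 fold of CDDO-2P-Im over vehicle was -0.20, with a 95% interval of -0.44 to 0.04 (limma adjusted p = 0.234), and -0.02 after scaling.

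C3ar1 was at 0.625, 0.827, 0.670, 0.659 and 0.787 TPM in APP/TAU CDDO-2P-Im, against 1.57, 0.830, 0.792, 0.735 and 0.636 TPM in APP/TAU vehicle and 0.567, 0.607, 0.434, 0.718 and 0.548 TPM in wild type. As deposited 4 of the vehicle libraries lay above every wild type library, and 2 did after scaling. The log2 fold of vehicle over wild type with no minimum on abundance was 0.26 ± 0.11 (limma p = 0.029, adjusted p = 0.278), or 0.17 ± 0.10 after scaling (limma p = 0.106, adjusted p = 0.619). C5ar1 averaged 0.499 ± 0.157 TPM in APP/TAU CDDO-2P-Im, 0.488 ± 0.329 TPM in APP/TAU vehicle and 0.380 ± 0.108 TPM in wild type (SD, n = 5 each), with overlap throughout.

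After scaling 10 of the 18 folds of tested complement genes in this cohort had the other sign, and none was called on either scale. The most abundant RNA took 27.9 to 31.2% of the total in APP/TAU CDDO-2P-Im, 15.5 to 29.1% in APP/TAU vehicle and 24.9 to 34.5% in wild type. Between CDDO-2P-Im and vehicle the median log2 fold of all 17592 genes tested was -0.19 as deposited, and that of the 6 complement genes -0.17. After scaling these medians were 0.00 and 0.04. C1qa, for example, had a log2 fold of -0.01 as deposited, with a 95% interval of -0.35 to 0.33, and of 0.21 after scaling, with an interval of -0.05 to 0.47. Between APP/TAU vehicle and wild type the medians of all genes and of the complement genes were 0.18 and 0.15 as deposited, and 0.00 and -0.05 after scaling. As deposited, limma called 0 of 17592 genes between CDDO-2P-Im and vehicle (4719 at an unadjusted p below 0.05; 0.0114% called after scaling), 0.0227% between vehicle and wild type and 0.0227% between CDDO-2P-Im and wild type. In no comparison of this cohort did a tested complement gene have an unadjusted p below 0.05 on either scale, and against wild type every complement gene of the treated libraries had an adjusted p of 1 as deposited. The 12 resting microglia markers summed to 113 to 145 TPM in APP/TAU CDDO-2P-Im, 124 to 162 TPM in APP/TAU vehicle and 108 to 165 TPM in wild type, and none of them was called.

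Each table has its own scaling, so values of the cohorts are given next to each other and untested. C1qa averaged 58.3 ± 5.24 TPM in AppNLGF vehicle at 6 months and 32.5 ± 8.52 TPM in APP/TAU vehicle at 11 months, while the wild type means were 32.4 ± 1.87 and 29.9 ± 5.77 TPM at these ages. C4b averaged 7.04 ± 0.701 TPM in wild type at 6 months and 12.4 ± 1.34 TPM in wild type at 11 months, Serping1 2.30 ± 0.678 and 7.02 ± 1.55 TPM, and C3 0.311 ± 0.162 and 0.861 ± 0.361 TPM. Age, any difference in the tissue taken and the separate scaling cannot be told apart here.

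Of 50 other complement genes fixed as lists of initiators, alternative and terminal components, regulators and receptors, 23 reached the minimum abundance in the AppNLGF cohort and 22 in the APP/TAU cohort. Of the 14 other initiators only 2 were tested, and of the 10 alternative and terminal components only Cfp, which encodes properdin, the rest lying below the minimum. Of the 6 receptors tested in the AppNLGF cohort Itgax and Itgb2 were called higher in AppNLGF vehicle than in wild type, as were 0.221% of all genes tested. Itgax, the CD11c chain of complement receptor CR4, averaged 2.81 TPM in AppNLGF vehicle and 0.0894 TPM in wild type, a log2 fold of 1.77 ± 0.23 (limma adjusted p = 4.97e-05). It reached the minimum of 1 TPM through the model groups, and with no minimum its adjusted p was 0.000211. Itgb2, the beta chain that pairs with CD11b and CD11c, averaged 3.10 TPM in AppNLGF vehicle and 1.69 TPM in wild type, a log2 fold of 0.60 ± 0.12 (adjusted p = 0.0152). Every AppNLGF vehicle library lay above every wild type library for both genes, as for 0.399% of all genes tested. Set against wild type, AppNLGF CDDO-2P-Im libraries averaged 2.63 TPM of Itgax and 3.05 TPM of Itgb2, with log2 folds of 1.67 and 0.57 (limma adjusted p = 0.000109 and 0.0248). In that comparison 0.244% of all genes tested were called higher. With no minimum on abundance the Itgb2 call was lost (limma adjusted p = 0.0548).

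Of the 14 regulators tested none was called in any comparison, in TPM as deposited or after median-ratio scaling. Between AppNLGF CDDO-2P-Im and AppNLGF vehicle none of the 23 was called, and the smallest p belonged to Calr and Clu. Calr, the calreticulin that can act as a C1q receptor, averaged 113 ± 16.4 TPM in AppNLGF CDDO-2P-Im and 132 ± 8.05 TPM in AppNLGF vehicle, a log2 fold of -0.24 ± 0.07 (limma adjusted p = 0.476). Clu, which encodes clusterin, an inhibitor of the terminal complex, averaged 339 ± 36.5 TPM in AppNLGF CDDO-2P-Im and 366 ± 26.1 TPM in AppNLGF vehicle, a log2 fold of -0.11 (adjusted p = 0.778). None of the 22 was called in any APP/TAU comparison. The smallest p there were those of Cfp and Lrp1, an endocytic receptor, between CDDO-2P-Im and vehicle (log2 folds -0.45 and -0.36, limma adjusted p = 0.167 for both), of Lrp1 and Csmd2 between vehicle and wild type (0.42 and 0.38, adjusted p = 0.124 and 0.133), and of Calr and Cr1l between CDDO-2P-Im and wild type (-0.26 and -0.20, adjusted p = 1 for both).

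**Figure D3:**
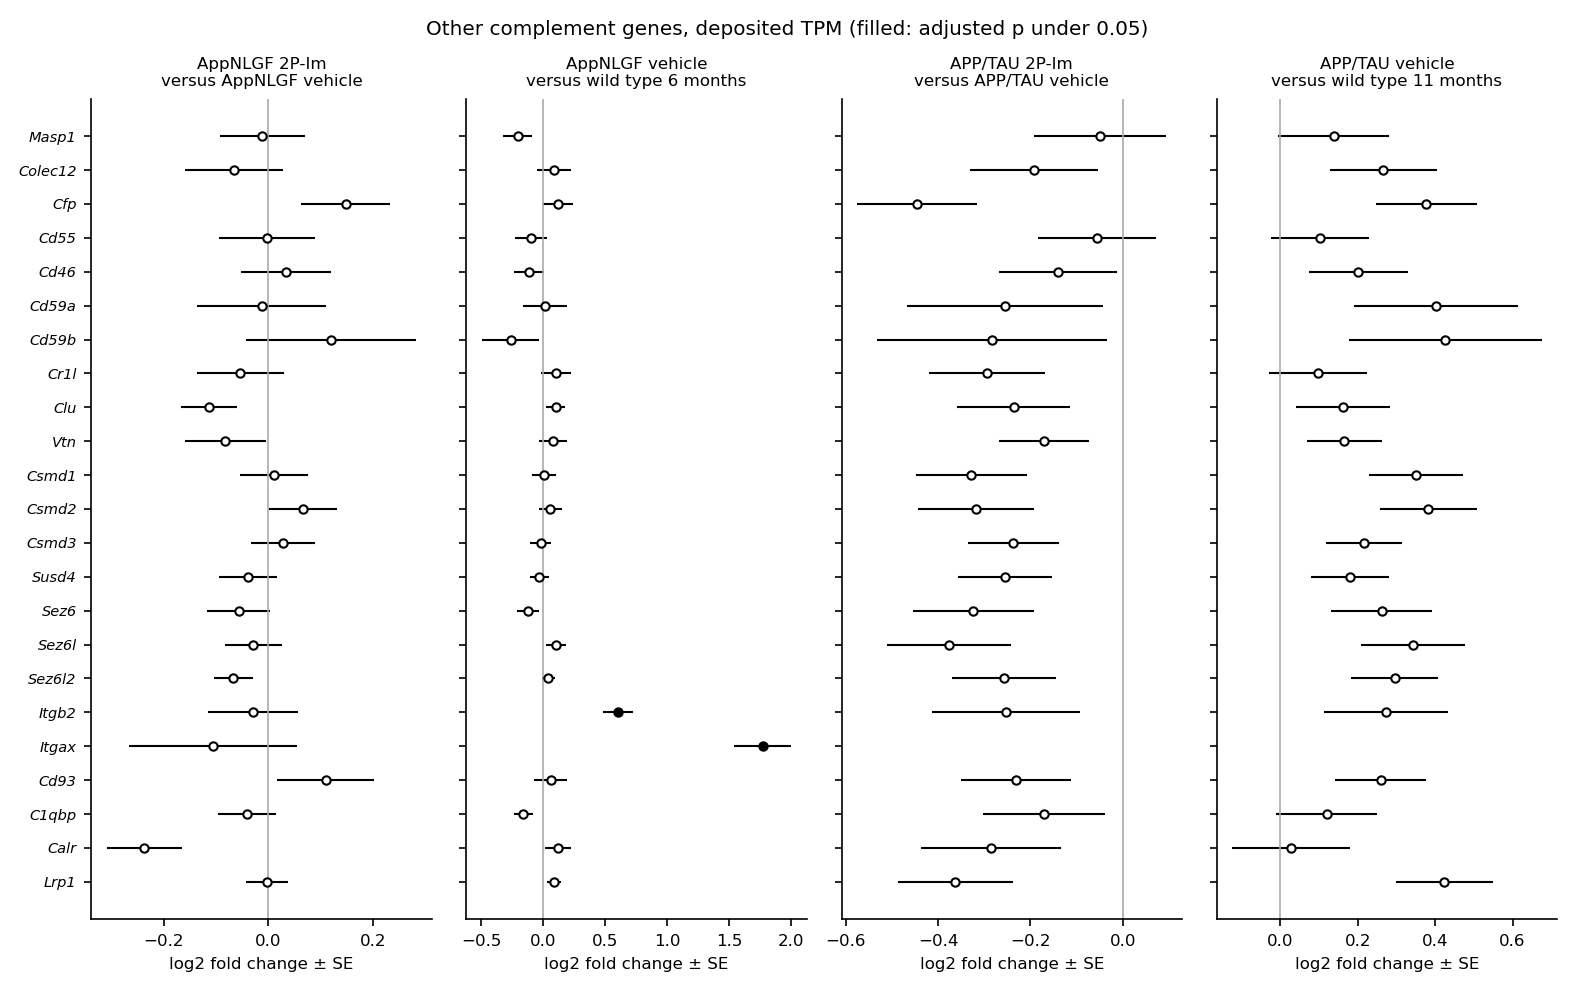
Log2 folds (x axis, log2(TPM + 1) as deposited) of the other complement genes tested, grouped as initiators, alternative and terminal components, regulators and receptors, for CDDO-2P-Im against vehicle and vehicle against wild type in each cohort; bars are SE, filled points are called, and the x axes differ in scale. Itgax and Itgb2, at 1.77 and 0.60 in AppNLGF vehicle against wild type, are the only filled points.

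Within the model groups C4b and Itgam in AppNLGF, and C4b, C3ar1 and C3 in APP/TAU, varied with the C1q chains from library to library. After median-ratio scaling and centring each library on its group, C4b followed the mean of the C1q chains over the 24 AppNLGF libraries with a Pearson r of 0.66 (permutation p adjusted over 6 relations = 0.00432) and a Spearman rho of 0.73 (adjusted permutation p = 0.0015). Without the 2 libraries farthest from the median of C1q the r of C4b was 0.64 (adjusted permutation p = 0.0141). Within groups it was 0.74 over the 13 AppNLGF CDDO-2P-Im libraries and 0.49 over the 11 AppNLGF vehicle libraries. Itgam followed C1q with an r of 0.53 (adjusted permutation p = 0.0260) and a rho of 0.50 (adjusted p = 0.0493). Without the 2 farthest libraries its r was 0.43, which did not pass adjustment (permutation p = 0.0428, adjusted p = 0.0960). C3 and C3ar1 both had an r of 0.43 (adjusted permutation p = 0.0837 for both), with a rho of 0.47 and 0.25. C5ar1 and Serping1 had an r of 0.06 and 0.01 (rho 0.11 and 0.05).

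Over the 10 APP/TAU model libraries C4b, C3ar1 and C3 followed C1q, with an r of 0.88, 0.83 and 0.77 (adjusted permutation p = 0.0193 for each) and a rho of 0.90, 0.68 and 0.79 (adjusted permutation p = 0.0128, 0.0613 and 0.0268). Without the 2 farthest libraries C3 had an r of 0.91 (adjusted permutation p = 0.0416) and a rho of 0.81 (adjusted p = 0.0888). In deposited TPM the r of C3 did not pass (0.76, adjusted permutation p = 0.0667). C4b had an r of 0.81 without those libraries (permutation p = 0.0225, adjusted p = 0.0675), and C3ar1 had 0.47 (adjusted permutation p = 0.372), so the relation of C3ar1 rested on them. Serping1, C5ar1 and Itgam had an r of 0.54, 0.52 and -0.15 (rho 0.41, 0.71 and 0.07). Libraries of a group share a genotype and a treatment, and the plaque load or region sampled from each is not given. How many of all genes had an r as high was not counted in either cohort. The relations are therefore not shown to be particular to complement genes.

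**Figure D4:**
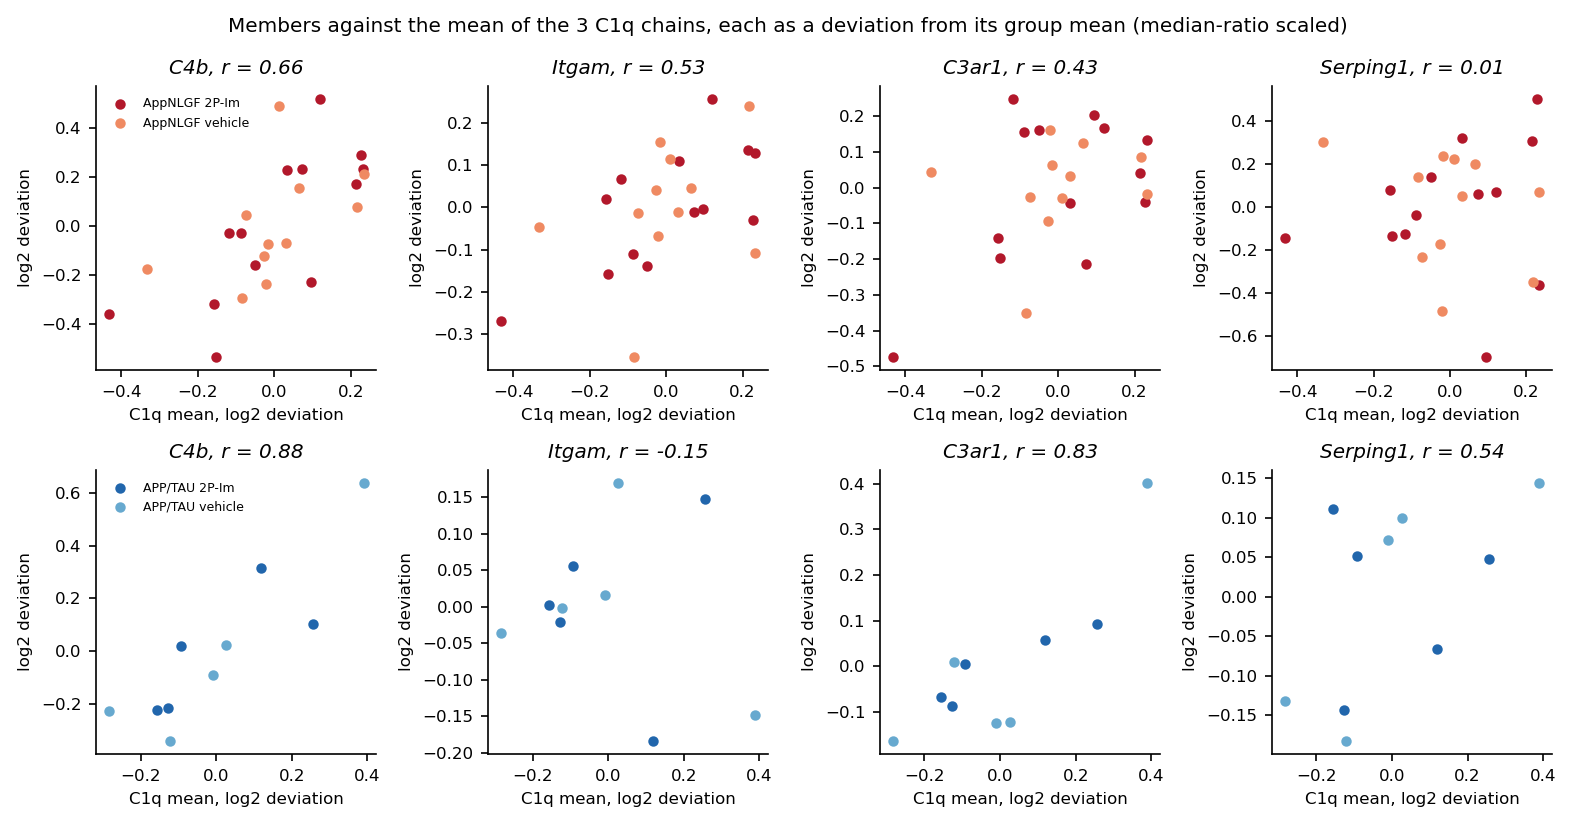
C4b, Itgam, C3ar1 and Serping1 (y axis) against the mean of the 3 C1q chains (x axis), both as log2(TPM + 1) after median-ratio scaling and with the group mean removed; points are model libraries, coloured by CDDO-2P-Im or vehicle. C4b rises with C1q in both cohorts (r = 0.66 over 24 AppNLGF and 0.88 over 10 APP/TAU libraries), and Serping1 shows no slope in AppNLGF (r = 0.01).

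All other tested genes with a symbol were compared with the C1q mean, C4b and C3. Over the 24 AppNLGF libraries those most like the C1q mean were Ctss, a lysosomal protease (r = 0.87), and Trem2, a lipid receptor (0.87). Next came Csf1r, the receptor that keeps microglia alive (0.87), and the cathepsins Ctsd (0.82) and Ctsz (0.80), out of 16293 genes compared. Those most like C4b were Gfap, the astrocyte filament gene (0.81), Itgax (0.80) and Ctsd (0.79). Those most like C3 were Alb, which encodes albumin (0.73), H2-K1, a class I antigen gene (0.72), and Zfp276 (0.70). Over the 10 APP/TAU libraries the nearest to C1q were Ogdhl (0.97), Gjb6 (0.97), Mt1 (0.96), Lyz2 (0.96) and Ctsd (0.96), out of 17051 genes. The nearest to C4b were Ctsd (0.96), Gfap (0.95) and Tapbp (0.94), and the nearest to C3 were Gm14392 (0.95), Ccdc127 (0.95) and Ap1b1 (0.94). These correlations are the highest of many over few libraries and are given as a description.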

How the data were processed

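Bulk RNA of mouse brain was extracted with Sepasol and sequenced from MGIEasy directional libraries, per the labels' protocols. Per the submitters' processing notes, Salmon and the build GRCm38 (mm10) were used; no version or annotation release is recorded in the labels. TPM were deposited as a table per cohort, with 55804 gene rows each and 64708 transcript rows in the AppNLGF table, which were kept out of the main fits. Gene rows held 84.9 to 91.4% of the total in a library, so the row of a gene may lack part of its RNA. TPM keep no depth, so no counting interval can be given. Symbols were matched for 51327 gene rows, and gene positions are those of GENCODE on GRCm38, while promoter windows use RefSeq starts.

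Genes averaging at least 1 TPM were tested, 16776 in the AppNLGF and 17592 in the APP/TAU table, with limma 3.58.1 in R 4.3.3 (trend, 1 mean per group, two-sided, Benjamini-Hochberg over all genes) on log2(TPM + 1). Relations used 100000 permutations within groups in Python 3.11.15. Named genes were the 9 members, called genes of the other complement lists or the 2 with the smallest p, up to 2 markers of a list, and the 5 or 3 genes most like C1q, C4b and C3. The fits were tested on simulated data. The alternatives were median-ratio scaling, rescaling without the most abundant RNA, other abundance minimums and pseudocounts, fits of only the groups compared, the replicate block, a term for lower against higher replicate numbers and leaving out each library. A gene of the regulator list and a promoter motif are not reported here. The genes, lists and tests were chosen with earlier results of these data known.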

Additional observations from a re-analysis of the deposited data

Results flagged for a closer look

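Single libraries stood apart from the rest of their group, by a gap that is large beside the group's range, in 7 of 36 sets of a complement gene in a group of 4 or 5 libraries; chance marks about 1 set in 20. In wild type at 6 months C3 was at 0.554 TPM in library 4 (the next was 0.236 TPM), and C5ar1 at 0.514 TPM in library 3 (the next was 0.394 TPM). In wild type at 11 months library 4 held the highest C1qa, 39.8 TPM (next 29.2 TPM), and the highest Serping1, 9.70 TPM (next 6.71 TPM). The most abundant RNA took the lowest share of its group there, 24.9%, and after median-ratio scaling C1qa was at 34.4 TPM (next 31.0 TPM) and Serping1 at 8.39 TPM (next 8.22 TPM). In APP/TAU CDDO-2P-Im library 2 held the highest C3, 1.37 TPM (next 0.904 TPM), and the highest C5ar1, 0.771 TPM (next 0.483 TPM). In APP/TAU vehicle library 1 held the highest C3ar1, 1.57 TPM (next 0.830 TPM).

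Rows of single C4b transcripts are listed apart from the gene row in the AppNLGF table. They entered no comparison beyond an alternative that sums them with the gene row. The rows below were picked because their AppNLGF vehicle median lay above every wild type library. The transcript ENSMUST00000173057, annotated as subject to nonsense-mediated decay, had a median of 1.35 TPM in AppNLGF vehicle, above the highest wild type library at 1.05 TPM. The retained-intron transcript ENSMUST00000173669 had a median of 1.60 TPM in AppNLGF vehicle, above the highest wild type library at 0.800 TPM. The lowest AppNLGF vehicle libraries, at 0 and 0.299 TPM in that order, lay below these wild type values, so the ranges overlapped. Neither difference was tested.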

How the results depend on the processing

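Of 39 folds of complement genes, 2178 values were recomputed under other settings. The 8 called folds kept direction and call in 542 of 552, lost only the call in 10 and reversed in none. Most of the 552 values left out a single library, and all 10 losses were of C1qa or C1qb. In AppNLGF CDDO-2P-Im against wild type, C1qb as deposited lost its call whichever wild type library was left out. Every reversal below is of a fold that was not called, and the cause was not tested. With the replicate number as a block 3 complement genes were called in AppNLGF vehicle against wild type, beside 4 without it (C1qa 0.63, adjusted p = 0.0742), and Serping1 was at -0.10, or -0.0046 with median-ratio scaling. Same-numbered libraries correlated between -0.081 and 0.118, so the numbers were not taken as pairs. The share of the most abundant RNA tended to be higher at low numbers in the AppNLGF groups, without a clean split. It was 36.0 to 40.0% in AppNLGF CDDO-2P-Im libraries 1 to 3 and 34.4 to 38.0% in AppNLGF vehicle libraries 1 to 5. In CDDO-2P-Im libraries 9 to 13 it was 28.3 to 30.3%, and in vehicle libraries 7 to 11 it was 29.1 to 31.8%. CDDO-2P-Im libraries 4 to 8 were mixed, at 32.5, 39.7, 32.9, 37.2 and 31.1%. Vehicle library 6 was at 33.1%, and wild type libraries 1 to 4 were at 30.7 to 33.7%. A term for numbers 1 to 5 against 6 and above, added after seeing the data for the comparisons with wild type, left 4 called in both and gave Serping1 -0.032 in AppNLGF vehicle. Summing transcript rows with gene rows, an alternative added after seeing the data, gave Serping1 -0.0045. In AppNLGF CDDO-2P-Im against wild type, fitting only those groups left 2 called (C1qa adjusted p = 0.138, C1qb 0.185), and leaving out single libraries left 2 to 6. In AppNLGF CDDO-2P-Im against vehicle C1qc was at 0.027 with median-ratio scaling and 0.0088 with the block as well. Without treated libraries 1 and 2 C1qa, C1qc and Itgam were at 0.024, 0.067 and 0.026, or 0.021, 0.064 and 0.022 with scaling, which was added after seeing the data; these libraries are low in C1q, so leaving them out raises the treated mean, and C1qb stayed at -0.036. In APP/TAU CDDO-2P-Im against vehicle median-ratio scaling, with or without the block, gave C1qa 0.21, C1qb 0.12, C1qc 0.064, C4b 0.014 and Serping1 0.010; rescaling without the most abundant RNA gave C1qa 0.11 and C1qb 0.019; scaling without libraries under 20% of that RNA, added later, gave 0.10 and 0.0017. In APP/TAU vehicle against wild type scaling, with or without the block, gave C1qa -0.10, C1qb -0.046, C1qc -0.061 and Itgam -0.15; rescaling without that RNA gave C1qa -0.021 and Itgam -0.091; leaving out those libraries gave Itgam -0.068, or -0.14 with scaling. In APP/TAU CDDO-2P-Im against wild type C1qc was at 0.0033 with scaling, block or not, and 0.0029 without those libraries. Leaving out single libraries, with either scaling, moved folds that changed sign over these ranges: in AppNLGF CDDO-2P-Im against vehicle C1qc -0.045 to 0.062 and Itgam -0.10 to 0.0077; Serping1 -0.050 to 0.22 in AppNLGF vehicle and -0.24 to 0.058 in AppNLGF CDDO-2P-Im against wild type; in APP/TAU CDDO-2P-Im against vehicle C1qa -0.10 to 0.33, C1qb -0.16 to 0.22, C1qc -0.22 to 0.14, C4b -0.32 to 0.17, Serping1 -0.28 to 0.046 and Itgam -0.24 to 0.029; in APP/TAU vehicle against wild type C1qa -0.22 to 0.21, C1qb -0.14 to 0.21, C1qc -0.14 to 0.23 and Itgam -0.21 to 0.086; in APP/TAU CDDO-2P-Im against wild type C1qb -0.0014 to 0.12, C1qc -0.077 to 0.076 and Serping1 -0.0096 to 0.16. Relations with C1q that passed numbered 2 in AppNLGF and 3 in APP/TAU, and 1 in each without the 2 farthest libraries; Serping1 in AppNLGF was at r = -0.0058 with a pseudocount of 0.1, and Itgam in APP/TAU at 0.056 in deposited TPM. TPM hold no depth, so how far depth limits C3, C5ar1 and C3ar1 is unknown.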
